A study of Mus musculus with 12 samples.

Results

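The genes described here encode the subunits of the respiratory chain and of ATP synthase. They were taken by symbol, as the nuclear genes of the Nduf, Sdh, Uqcr, Cyc1, Cox4 to Cox8 and Atp5 families together with the protein-coding genes of the mitochondrial genome, and 98 of the 35976 symbols in the count tables matched. Of these, 35 are nuclear subunits of complex I, 4 of complex II, 9 of complex III, 18 of complex IV and 15 of complex V, and 13 are mitochondrially encoded. The other 4 matched by name and are not subunits. They are the pseudogenes Uqcrh-ps1 and Atp5c1-ps, and Atp5s and Atp5sl, whose products resemble an ATP synthase factor. Ndufa4 and Ndufa4l2 were counted in complex IV, to which the Ndufa4 protein belongs, and Cox4i1 was not matched by the symbol pattern and is counted in a separate list.

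RNA was sequenced from testes of outbred Swiss (RjOrl) mouse embryos dissected at E15.5, in 12 libraries of 3 pooled embryos each and 3 libraries per group, with totals of 25081647 to 68996146 counts. F1 *thia* embryos were carried by females gavaged with thiacloprid, a neonicotinoid insecticide, at 6 mg/kg/day from E6.5 to E15.5, and F1 control embryos by females given the oil vehicle (dose 0). F3 *thia* and F3 control embryos descended from these mice through males crossed with untreated females, so that neither F3 group was exposed. No group carried an engineered allele, and a pool mixes all cells of 3 embryonic testes. Which dams the pooled embryos came from is not given, so that p-values measure the spread between these pools. The labels give no extraction or sequencing batch, and generation and library preparation cannot be told apart.

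The markers of the tissue were present in every library, with summed levels (CPM, counts scaled to a common library total, with TMM factors set over the 12 libraries) of 568 to 1810 for 12 germ cell markers, 1071 to 2453 for 12 Sertoli cell markers and 2748 to 8825 for 9 Leydig cell markers. Library 2 of F3 *thia* stood apart from the other libraries of its group. The chi-square per degree of freedom was 90.7 and 101 in its pairs and 17.3 to 42.2 in all other pairs of replicates.

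Complexes I to IV of the inner mitochondrial membrane pass electrons from NADH and succinate to oxygen, and complexes I, III and IV pump protons, whose return through complex V drives ATP synthesis. Most subunits are encoded in the nucleus and imported, whereas a small core is transcribed from the mitochondrial genome, so that the complexes depend on both genomes. In the fetal testis these genes are used by all cell types, and some complex IV subunits also have isoforms restricted to muscle or to male germ cells.

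Levels were compared between genes as CPM per kilobase of exon, with all 12 libraries scaled together. Among the nuclear subunits the highest level was that of Atp5b, the catalytic beta subunit of ATP synthase, at 587 ± 98 (SD, n = 3) in F1 control, 657 ± 18 in F1 *thia*, 760 ± 23 in F3 control and 675 ± 55.8 in F3 *thia*. In the other complexes the highest levels were those of Uqcrh, the hinge subunit of complex III, of Cox6c, of Ndufb9 and of Sdhd, an anchor of complex II. Uqcrh stood at 334 ± 54.2 CPM per kilobase in F1 control and 679 ± 36.7 in F3 control. These values of both generations are set side by side and were not tested against each other.

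For the subunits that exist in several isoforms, the form found in most tissues was far more abundant than the muscle or testis form in all 4 groups. Cox6a1, the common form, had a level of 282 to 325 CPM per kilobase as a group mean and Cox6a2, the heart and muscle form, of 0.639 to 1.30. Cox7a2 had 147 to 217 and the muscle form Cox7a1 14.4 to 28. Cox8a had 226 to 296, while the muscle form Cox8b stayed at or under 0.573 and Cox8c, known from testis, at 3.24 to 4.07. The same order held for Cox6b1 (223 to 354) over the testis form Cox6b2 (18.2 to 31.8), and for Cox7b (92.3 to 187) over Cox7b2 (4.55 to 8.4). Ndufa4 had 198 to 338 and its paralog Ndufa4l2, a gene known to respond to hypoxia, 5.59 to 9.42. Of the 3 genes for the identical c subunit of ATP synthase, Atp5g3 was highest (448 to 648), Atp5g2 intermediate (184 to 219) and Atp5g1 lowest (22.3 to 25.2).

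In F3, most nuclear subunits had a lower level in *thia* than in control testes, 73 of the 80 tested, and none passed the test. The summed level of the nuclear subunits, on the scale of the 12 libraries, was 15128, 13974 and 14966 CPM in the control libraries 1 to 3 and 11943, 13294 and 12995 CPM in the *thia* libraries, and the groups did not overlap. The median log2 fold change of the 80 was -0.17, against 0.00 for all genes, of which 49.4% were below 0. With the length trend of the libraries removed, the median was -0.04 and 48 of the 80 were below 0. The mean sum in *thia* differed from that in control by -16.1% for complex I, -11.0% for complex II, -14.4% for complex III, -8.07% for complex IV and -13.0% for complex V. The groups did not overlap in complexes I, II, III and V, and overlapped in complex IV. No sum over members was tested, because the members were chosen with earlier results known.

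**Figure D1:**
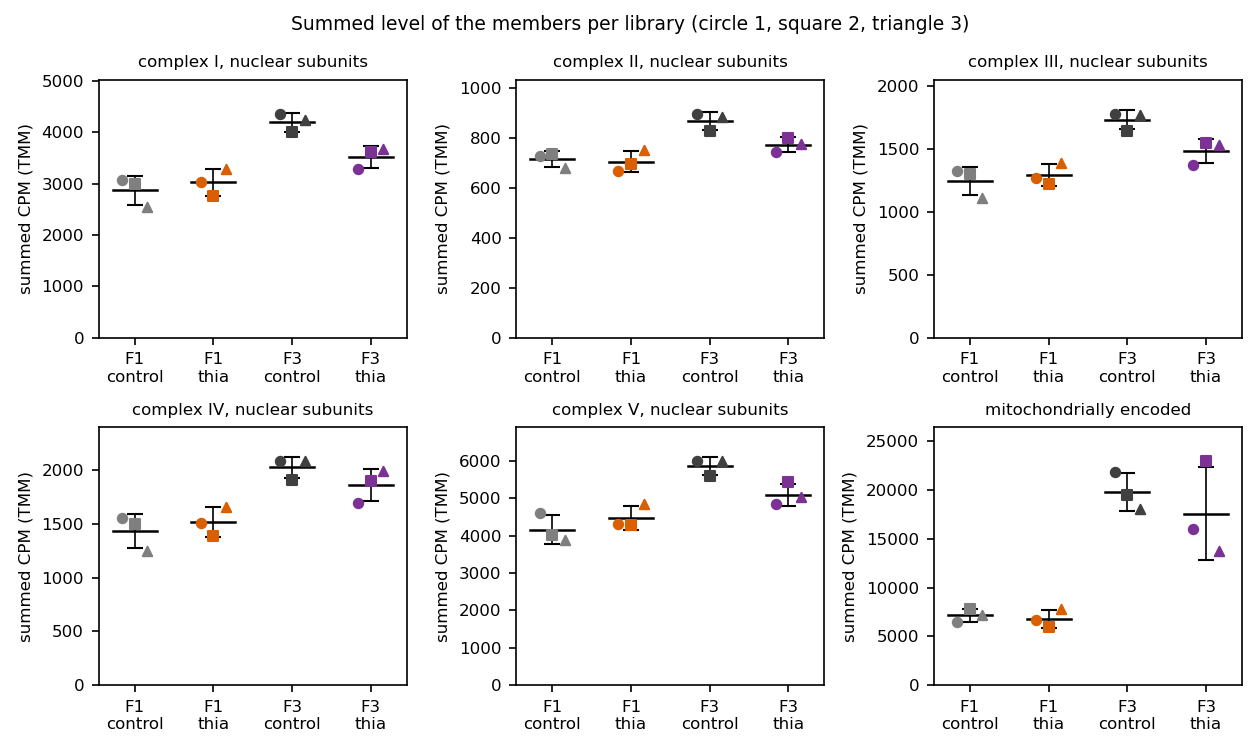
Summed level per library of the nuclear subunits of complexes I to V and of the 13 mitochondrially encoded genes, in CPM scaled by TMM over the 12 libraries, on axes that start at 0. Points are libraries (circle 1, square 2, triangle 3), and bars are the mean ± SD of 3 libraries. All 3 F3 *thia* sums lie under all 3 F3 control sums in complexes I, II, III and V, while F3 *thia* library 3 reaches 1994 CPM in complex IV and library 2 reaches 22987 CPM in the mitochondrially encoded sum.

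No member passed the test in F3. The quasi-likelihood test of edgeR called 0 of the 96 members tested at an FDR of 0.1, as it called 0.0% of all 18539 genes, and the lowest adjusted p was 0.101, for Uqcrh. At an unadjusted p under 0.05, 32 members were lower and 2 higher, against 10.0% of all genes lower and 11.0% higher. The *thia* and control libraries did not overlap for 40 members with lower and 1 with higher levels in *thia*, against 14.3% and 13.2% of all genes. With 3 libraries against 3, an exact permutation test of 1 gene cannot go below p = 0.1. The Wald test of DESeq2 called 20 members lower and 2 higher at an FDR of 0.1, against 5.7% of all genes lower and 9.17% higher. In a fit of all 12 libraries, edgeR called 12 members lower, against 3.99% of all genes, and 0 higher, against 5.87%.

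These values moved with transcript length. The nuclear subunits are short, with a median exon length of 850 bases among those tested against 2916 for all genes. In F3, all 1507 tested genes under 1000 bases had a median log2 fold change of -0.16, and the 49 nuclear subunits of that length also had -0.16. Between 1000 and 2000 bases the median was -0.10 for 3748 genes and -0.20 for 24 subunits. With the trend of counts with length removed in each library, the median of the 80 subunits was -0.04, 48 of them were below 0, and 13 members were lower at an unadjusted p under 0.05 against 8.42% of all genes. After that removal the 49 shortest subunits had a median of 0.00 and the 24 of 1000 to 2000 bases one of -0.08. The sums and counts given for F3 here are as fitted, without this removal.

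**Figure D2:**
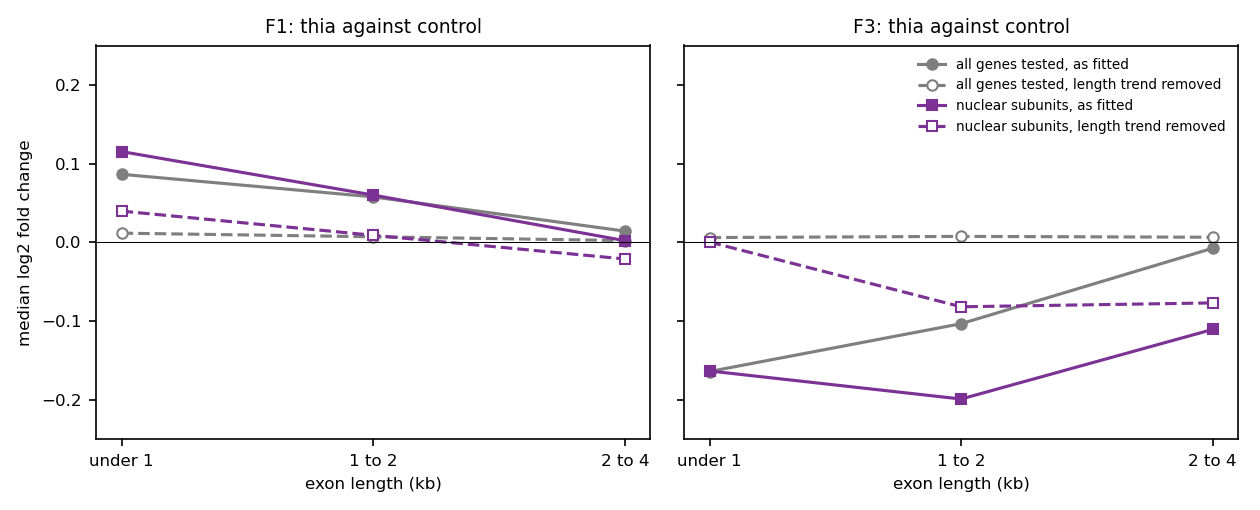
Median log2 fold change of *thia* against control by exon length (under 1, 1 to 2 and 2 to 4 kb) in F1 (left) and F3 (right), for all genes tested (grey circles) and for 49, 24 and 6 nuclear subunits (purple squares). Solid lines are the values as fitted and dashed lines those with the length trend removed. In F3 both lists start at -0.16 in the shortest class, and the dashed lines lie between -0.08 and 0.01.

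The 4 members with the smallest p in F3 were Uqcrh, Ndufb8, Ndufb2 and Atp5e, whose promoters are shown so that the start regions of the genes with the clearest difference can be compared. Each window runs from 250 bases before to 50 after the transcription start of RefSeq on GRCm38.p6 and is written 5′ to 3′ on the strand of the gene. Capitals mark the letters CCGGAAG, or CTTCCGG on the other strand, the core bound by ETS factors such as GABPA, a known regulator of these families.
Uqcrh, chr4:116075021-116075320, minus strand: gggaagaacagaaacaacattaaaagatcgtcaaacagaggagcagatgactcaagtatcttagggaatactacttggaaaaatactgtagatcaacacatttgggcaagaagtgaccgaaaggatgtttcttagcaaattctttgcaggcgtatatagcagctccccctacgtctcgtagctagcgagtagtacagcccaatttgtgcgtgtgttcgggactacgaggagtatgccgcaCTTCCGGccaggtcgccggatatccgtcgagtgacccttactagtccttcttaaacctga
Ndufb8, chr19:44555393-44555692, minus strand: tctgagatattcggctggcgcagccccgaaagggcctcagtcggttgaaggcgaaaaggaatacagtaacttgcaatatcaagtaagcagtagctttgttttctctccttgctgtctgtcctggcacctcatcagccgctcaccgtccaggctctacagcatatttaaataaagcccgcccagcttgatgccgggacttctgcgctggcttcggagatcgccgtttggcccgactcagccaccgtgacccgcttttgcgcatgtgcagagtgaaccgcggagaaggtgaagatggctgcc
Ndufb2, chr6:39592315-39592614, plus strand: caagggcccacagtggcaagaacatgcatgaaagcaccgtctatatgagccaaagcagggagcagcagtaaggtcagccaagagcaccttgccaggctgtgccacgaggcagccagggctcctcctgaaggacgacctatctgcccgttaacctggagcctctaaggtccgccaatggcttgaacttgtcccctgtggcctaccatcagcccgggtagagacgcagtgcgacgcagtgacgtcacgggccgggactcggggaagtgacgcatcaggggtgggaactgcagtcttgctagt
Atp5e, chr2:174464052-174464351, minus strand: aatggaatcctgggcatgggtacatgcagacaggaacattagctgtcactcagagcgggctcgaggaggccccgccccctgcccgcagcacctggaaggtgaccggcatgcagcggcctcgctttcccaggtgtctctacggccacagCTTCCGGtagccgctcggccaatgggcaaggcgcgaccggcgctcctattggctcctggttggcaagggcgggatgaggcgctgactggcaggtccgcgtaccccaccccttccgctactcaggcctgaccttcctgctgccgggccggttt

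The ETS letters occur in the windows of Uqcrh, close to the start, and Atp5e, and in neither strand of those of Ndufb8 and Ndufb2. Windows were found for 66 of the 81 nuclear subunits, 71 windows in all, and 16 of the 71 (22.5%) held the ETS letters, against 8.86% of all 32851 windows of this length. The NRF1 letters CGCATGCG, the same on both strands, were in 9 of them (12.7% against 1.87%) and the YY1 letters AAGATGGCG, or CGCCATCTT, in 7 (9.86% against 1.40%). The SP1 letters GGGCGGGG, or CCCCGCCC, were in 11 of the 71, against 17.6% of all windows. These are matches of letters and not sites, and none of the 4 motifs holds the letters of another.

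Levels of single genes are given below as CPM scaled by TMM within a generation. Complex I takes electrons from NADH. In F3, 34 of its 35 nuclear subunits were below 0 (median -0.17), 16 of them at an unadjusted p under 0.05, and DESeq2 called 10 lower. With the length trend removed, 19 of the 35 were below 0 (median -0.04). Ndufb8, an accessory subunit of the membrane arm (chr19:44548572-44555440), had 408, 353 and 349 CPM in F3 control and 195, 260 and 229 CPM in F3 *thia*. All 3 *thia* libraries were below all controls, with a log2 fold change of -0.70 ± 0.12 (SE, edgeR adjusted p = 0.105, DESeq2 adjusted p = 0.000128). With the length trend removed the log2 fold change of Ndufb8 was -0.65 (edgeR adjusted p = 0.124).

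Ndufb2, another accessory subunit of the membrane arm (chr6:39592574-39603382), had 89.8, 85.7 and 87.1 CPM in control and 61.9, 70.3 and 69.0 CPM in *thia* libraries, again without overlap (log2 fold change -0.38 ± 0.07, edgeR adjusted p = 0.105). Ndufb9 had 226, 205 and 215 CPM in control and 172, 164 and 173 CPM in *thia* (-0.34 ± 0.07, edgeR adjusted p = 0.105). Ndufv1, the flavoprotein that binds NADH, had a mean of 286 ± 40.4 CPM in control and 210 ± 12.1 in *thia* (-0.45 ± 0.11, edgeR adjusted p = 0.114). With the length trend removed the values were -0.19 for Ndufb2, -0.17 for Ndufb9 and -0.34 for Ndufv1 (edgeR adjusted p = 0.212, 0.257 and 0.192). Other subunits differed little. Ndufs1, the largest iron-sulfur subunit, had -0.08 ± 0.06 and Ndufs3, a core subunit of the matrix arm, -0.06 ± 0.10, and Ndufa10 stood at 90.2 CPM in both groups.

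Complex II oxidises succinate and is also an enzyme of the tricarboxylic acid cycle. Its 4 subunits were below 0 in F3, 2 of them at an unadjusted p under 0.05, and 3 were below 0 with the length trend removed. Sdhc, an anchor in the membrane, had 240, 207 and 239 CPM in control and 170, 198 and 188 CPM in *thia*, so that the groups did not overlap (log2 fold change -0.30 ± 0.09, edgeR adjusted p = 0.143, DESeq2 adjusted p = 0.0764). Sdhb, the iron-sulfur subunit, had 131, 132 and 131 CPM in control and 119, 112 and 117 CPM in *thia* (-0.18 ± 0.06, edgeR adjusted p = 0.173). Sdhd had 205, 190 and 213 CPM in control and 153, 193 and 171 CPM in *thia*, with *thia* library 2 inside the range of the controls (-0.23 ± 0.10, edgeR adjusted p = 0.243). The catalytic subunit Sdha had 253 ± 11.5 CPM in control and 251 ± 4.82 in *thia*.

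Complex III passes electrons from ubiquinol to cytochrome c, and its 9 nuclear subunits were below 0 in F3, 2 of them at an unadjusted p under 0.05. With the length trend removed, 6 of the 9 were below 0. Uqcrh (chr4:116066965-116075071) had 351, 326 and 370 CPM in control and 223, 246 and 255 CPM in *thia*. The highest *thia* library was below the lowest control (log2 fold change -0.53 ± 0.09, edgeR adjusted p = 0.101, DESeq2 adjusted p = 8.86e-05), and the value was -0.35 with the length trend removed. A processed copy, Uqcrh-ps1, is annotated and held 0.151 to 0.272 CPM as group means in F3, and reads that match both may be assigned to either. Uqcrc2, a core protein, had 276, 271 and 285 CPM in control and 218, 246 and 235 CPM in *thia* (-0.25 ± 0.07, edgeR adjusted p = 0.139). Uqcrb, which helps to bind ubiquinone, had 78.0, 70.9 and 85.0 CPM in control and 68.1, 65.4 and 75.4 CPM in *thia*, with an overlap (-0.16 ± 0.09, edgeR adjusted p = 0.362). Cyc1, the cytochrome c1 subunit, had -0.11 ± 0.10, and Uqcrfs1, the Rieske protein, -0.15 ± 0.09.

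Complex IV reduces oxygen, and its nuclear subunits were divided in F3, with 11 of 17 tested below 0 and 6 above. The median was -0.19, or -0.07 without library 3 of F3 control. With the length trend removed it was -0.02, with 9 of 17 below 0. Cox7c had 177, 162 and 176 CPM in control and 130, 127 and 153 CPM in *thia* (log2 fold change -0.33 ± 0.09, edgeR adjusted p = 0.131). Cox7a2l, a protein that joins respiratory complexes into supercomplexes, had 325, 273 and 268 CPM in control and 245, 220 and 226 CPM in *thia* (-0.33 ± 0.10, edgeR adjusted p = 0.139). With the length trend removed, neither Cox7c nor Cox7a2l had an unadjusted p under 0.05. The groups did not overlap for either gene, nor for Cox6b1 (-0.27 ± 0.09, edgeR adjusted p = 0.164) and the muscle form Cox7a1 (-0.36 ± 0.15, edgeR adjusted p = 0.232).

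The 6 complex IV genes above 0 were Ndufa4l2, Cox7b, Cox5b, Cox6a1, Cox6b2 and Cox8c. Ndufa4l2 had 4.27, 4.72 and 6.73 CPM in control and 5.59, 10.6 and 8.61 CPM in *thia*, with an overlap in *thia* library 1 (0.65 ± 0.28, edgeR adjusted p = 0.233, DESeq2 adjusted p = 0.0865). Cox7b had 147, 135 and 147 CPM in control, and in *thia* 108 CPM in library 1 but 213 and 206 CPM in libraries 2 and 3. Its *thia* libraries thus lay on both sides of the controls (0.30 ± 0.24, edgeR adjusted p = 0.513). The common subunit Cox6a1 had 0.08 ± 0.10, while the low testis forms Cox6b2 and Cox8c both had 0.04. With the length trend removed, Ndufa4l2 had 0.81, Cox5b 0.29 and Cox6a1 0.26, each higher at an unadjusted p under 0.05. Their edgeR adjusted p were 0.203, 0.276 and 0.203. In that setting 8 of the 17 complex IV genes were above 0 and 9 below.

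Complex V makes ATP. All 15 nuclear subunits tested were below 0 in F3 (median -0.19), 7 of them at an unadjusted p under 0.05, and DESeq2 called 5 lower. With the length trend removed the median was -0.10, with 11 of 15 below 0. Atp5e, the epsilon subunit of the central stalk (chr2:174461072-174464105), had 323, 273 and 350 CPM in control and 189, 233 and 201 CPM in *thia*. The groups did not overlap (log2 fold change -0.60 ± 0.12, edgeR adjusted p = 0.105, DESeq2 adjusted p = 0.000922), and the value was -0.40 with the length trend removed. Atp5c1, the gamma subunit that turns within the catalytic head, had 390, 393 and 375 CPM in control and 317, 318 and 321 CPM in *thia*, with a narrow range in both groups (-0.28 ± 0.07, edgeR adjusted p = 0.108). Atp5l, a subunit of the membrane part, had 175, 161 and 168 CPM in control and 123, 134 and 141 CPM in *thia* (-0.34 ± 0.08, edgeR adjusted p = 0.105). With the length trend removed the values were -0.19 for Atp5c1 and -0.15 for Atp5l (edgeR adjusted p = 0.206 and 0.257). As fitted, the catalytic subunit Atp5b (-0.17 ± 0.09) and Atp5a1 (-0.14 ± 0.09) differed less. Of the c subunit genes, Atp5g3 had -0.21, Atp5g1 -0.10 and Atp5g2 -0.08.

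**Figure D3:**
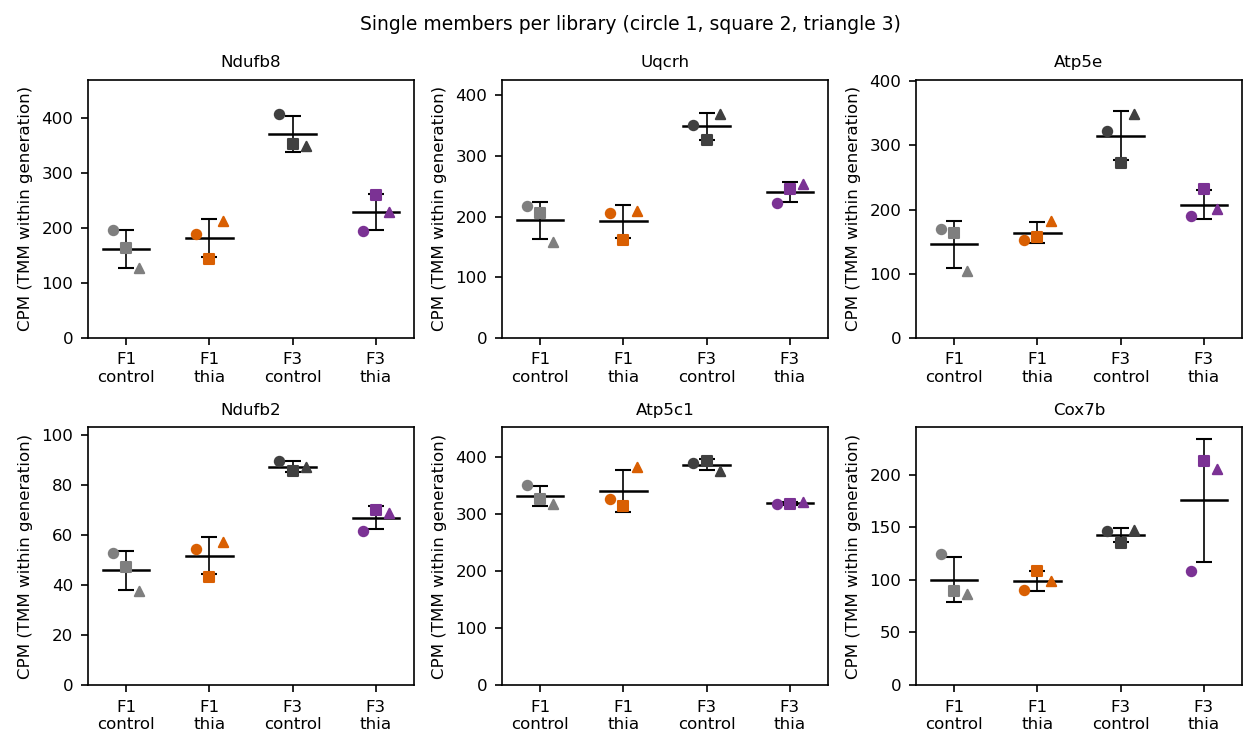
Level per library of Ndufb8, Uqcrh, Atp5e, Ndufb2, Atp5c1 and Cox7b in CPM scaled by TMM within each generation, on axes that start at 0, with points for libraries (circle 1, square 2, triangle 3) and bars for the mean ± SD of 3 libraries. For the first 5 genes the F3 *thia* libraries lie under the F3 controls, whereas for Cox7b they run from 108 to 213 CPM around controls of 135 to 147 CPM, and in F1 the groups of all 6 genes overlap.

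**Figure D4:**
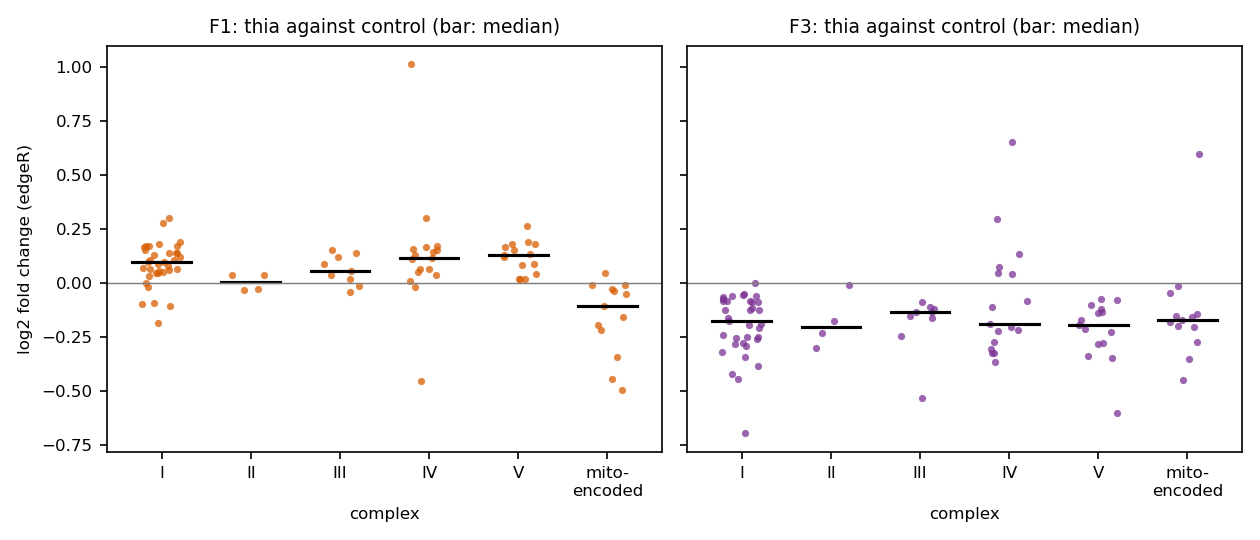
Log2 fold change of *thia* against control (edgeR) of each tested member by complex, in F1 (left) and F3 (right). Each point is a gene and each bar the median of its class. In F3 the medians of the nuclear complexes lie between -0.20 and -0.14, and in F1 between 0.00 and 0.13.

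The mitochondrially encoded transcripts were more variable in F3 *thia* than the nuclear ones. Their summed level was 21894, 19495 and 18015 CPM in F3 control and 15994, 22987 and 13787 CPM in F3 *thia*, with *thia* library 2 above every control and the other two below every control. COX1, the catalytic subunit of complex IV, had 7893, 6805 and 6436 CPM in control and 5498, 8402 and 5021 CPM in *thia* (log2 fold change -0.16 ± 0.20, edgeR adjusted p = 0.687). CYTB of complex III (-0.17 ± 0.17) and ND1 of complex I (-0.21 ± 0.16) also had their highest *thia* value in library 2. ND5 (-0.15), ND4 (-0.14), ND2 (-0.20), COX2 (-0.18), ATP6 (-0.35), COX3 (-0.05), ND3 (-0.27) and ND4L (-0.02) were also below 0. The median of the 13 was -0.17, and its size was not stable. It was -0.42 without *thia* library 2 and -0.24 without control library 3, but -0.05 without *thia* library 3, with 8 of 13 below 0. With 10 of 13 below 0, it was -0.05 with the length trend removed, -0.07 with the GC trend removed and -0.09 without control library 1.

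Without *thia* library 2, edgeR called 13 members lower in F3 at an FDR of 0.1, and 0 higher, against 2.59% of all genes called lower and 4.23% higher. They were the mitochondrially encoded ND1, ND2, COX2, ATP6 and ND6 and the nuclear Ndufb8, Ndufb2, Ndufb9, Ndufa7, Ndufv2, Uqcrh, Atp5e and Atp5l. Library 2 also held the highest summed level of 9 blood markers, 83587 CPM against 45467 and 49881 CPM in the other *thia* libraries and 62382 to 67154 CPM in F3 control. The part of blood cells in these values was not tested.

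ATP8 was the only mitochondrially encoded member above 0 in F3, with 8.71, 7.83 and 8.17 CPM in control and 9.72, 16.4 and 11.4 CPM in *thia*, so that all *thia* libraries were above all controls (log2 fold change 0.60 ± 0.20, edgeR adjusted p = 0.160, DESeq2 adjusted p = 0.0385). ATP8 overlaps ATP6 on the same strand, and ATP6 overlaps COX3, so that the counts of these genes may depend on how shared reads were assigned. ND6 lies on the other strand and overlaps ND5. It had 32.2, 27.7 and 31.1 CPM in control and 21.4, 28.5 and 16.8 CPM in *thia* (-0.45 ± 0.18, edgeR adjusted p = 0.223).

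Along the mitochondrial genome the levels were uneven in every library. The 6 genes of the stretch chrM:7013-10173, COX2, ATP8, ATP6, COX3, ND3 and ND4L, had 0.558 to 122 CPM, while ND1, ND2, COX1, ND4, ND5 and CYTB had 351 to 8402 CPM. The plus strand of the mitochondrial genome is transcribed as 1 long RNA, and the nuclear genome of the mouse carries a near-identical copy of part of it. How reads that match several places were counted is not stated, and the part of this in the uneven levels was not tested. No order of abundance is read from them.

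**Figure D5:**
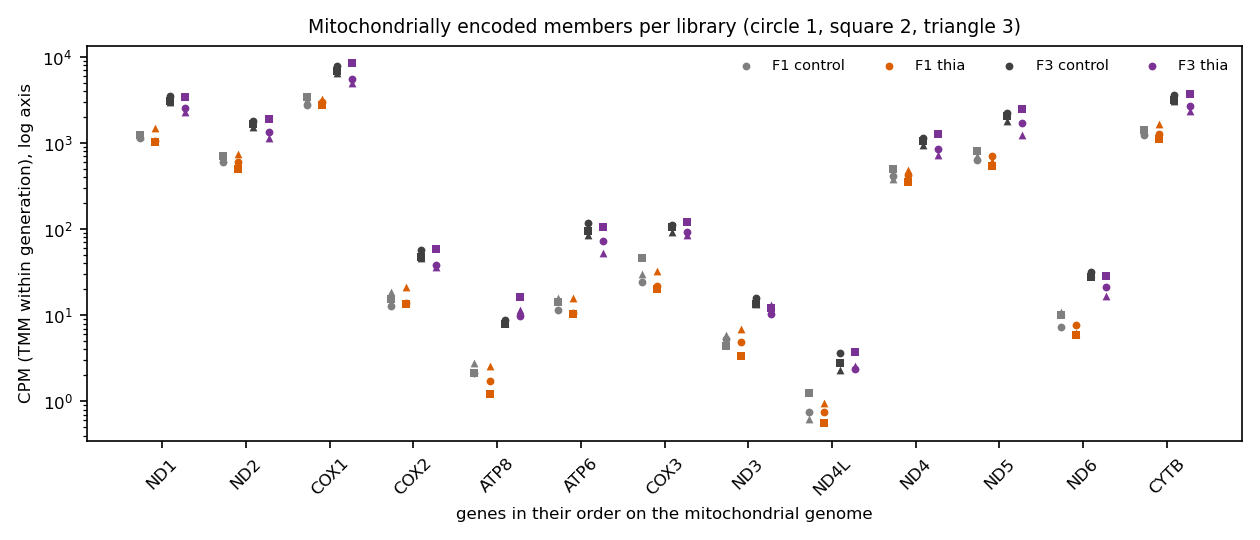
Level per library of the 13 mitochondrially encoded genes in their order on the genome, in CPM scaled by TMM within each generation, on a log axis. Colours are the groups and shapes the libraries (circle 1, square 2, triangle 3). The 6 genes from COX2 to ND4L lie at or under 122 CPM in every library, and the other genes but ND6 lie at or above 351 CPM.

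In F1, where the embryos were exposed directly, no member passed the test. EdgeR called 0 of 95 members at an FDR of 0.15, against 0.0105% of all genes, and DESeq2 also called 0, against 0.525% of all genes called lower and 0.488% higher. At an unadjusted p under 0.05, 1 member was lower, ND6, and 1 higher, Ndufb10, against 4.13% and 4.63% of all genes. The summed level of the nuclear subunits was 11268, 10559 and 9463 CPM in control and 10787, 10354 and 11937 CPM in *thia*, and the groups overlapped. Of the 80 nuclear subunits, 69 were above 0, with a median of 0.09. In F1, 82 of 87 cytoplasmic ribosomal protein genes (median 0.17) and 16 of 18 glycolysis genes (median 0.16) were also above 0. Of the 12 germ cell markers 10 were below 0 (median -0.42), 7 of them at an unadjusted p under 0.05, 1 of which edgeR called, while DESeq2 called 5, and the part of this in the values of the members was not tested. The median of the nuclear subunits was 0.00 without library 3 of F1 control, the lowest of the 6 libraries in this sum, 0.02 without library 3 of F1 *thia*, the highest, and 0.02 with the length trend removed.

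Within F1, the 15 complex V genes were above 0 (median 0.13), as were 30 of 35 in complex I (0.10), 7 of 9 in complex III (0.06) and 15 of 17 in complex IV (0.12), whereas complex II had 2 on each side. Without library 3 of F1 control, complex III turned to -0.03, with 7 of 9 below 0, complex II had 4 of 4 below 0, and complexes I, IV and V fell to 0.01, 0.01 and 0.02. Ndufb10, an accessory subunit of complex I, had 66.1, 59.0 and 53.9 CPM in control and 70.2, 65.8 and 80.7 CPM in *thia*, and *thia* library 2 fell just under control library 1 (0.28 ± 0.11, edgeR adjusted p = 0.543). The mitochondrially encoded genes lay the other way, 12 of 13 below 0 with a median of -0.11, but this direction was not stable. Without library 2 of F1 *thia* the median was 0.01 with 6 of 13 below 0, with the GC trend removed it was 0.11 with 9 of 13 above 0, and without library 2 of F1 control it was -0.05 with 7 of 13 below 0. In other settings 13 of 13 were below 0. The median was then -0.18 with the length trend removed, -0.17 without library 1 of F1 control and -0.27 without library 3 of F1 *thia*. ND6 had 7.34, 10.2 and 10.8 CPM in control and 7.80, 5.89 and 6.29 CPM in *thia* (-0.50 ± 0.18, edgeR adjusted p = 0.518). The groups did not overlap for 2 members with lower levels in *thia*, Ndufs1 and Atp5s, and 4 with higher, Uqcrc1, Cox7a2l, Atp5d and Atp5sl, against 6.89% and 7.47% of all genes. The smallest p of the other complexes were those of Sdhd (0.04 ± 0.09), Uqcrc1 (0.15 ± 0.09), Atp5j2 (0.18 ± 0.11) and the scarce Cox6a2 (1.02 ± 0.47), with edgeR adjusted p of 0.897, 0.642, 0.637 and 0.575. Uqcrh was at 217, 206 and 158 CPM in control and 205, 161 and 209 CPM in *thia* (-0.01 ± 0.14).

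Whether *thia* differed from control by the same amount in both generations was tested as an interaction over the 12 libraries. EdgeR called 0 of 97 members at an FDR of 0.1, against 0.0051% of all genes, and the lowest adjusted p was 0.248. At an unadjusted p under 0.05, 24 members had a lower effect in F3 and 1, ATP8, a higher effect, against 6.1% and 7.93% of all genes. DESeq2 called 6 members lower and 0 higher, against 1.89% and 2.85% of all genes. Without F3 *thia* library 2, edgeR called 0 members, against 0.00992% of all genes in each direction. The median difference of the nuclear subunits was -0.24, or -0.05 with the length trend removed. For Ndufb8 the difference was -0.85 (edgeR adjusted p = 0.248) and for Atp5e -0.75 (edgeR adjusted p = 0.254), so that neither was shown to differ between the generations. For 3 of the 95 members tested in both generations every *thia* library lay above every control in F1 and below every control in F3, against 0.472% of the 18229 genes tested in both.

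Other genes of the pathway were counted from fixed lists, in F3, with 0 genes called by edgeR in each list. Beside them stand, over all genes, 10.0% lower at an unadjusted p under 0.05 and 5.7% called lower by DESeq2. Of 16 further subunits and carriers, 14 were below 0 (median -0.19), 6 of them at an unadjusted p under 0.05, and DESeq2 called 2 lower. With the length trend removed, 12 of the 16 were below 0 (median -0.09), 3 of them at that p, against 8.42% of all genes. Usmg5, a small subunit of ATP synthase, had 158, 142 and 154 CPM in control and 98.9, 118 and 126 CPM in *thia* (-0.41 ± 0.10, edgeR adjusted p = 0.114). Of 49 assembly factors 40 were below 0, with a median of -0.10, and 9 at an unadjusted p under 0.05, while DESeq2 called 5 lower, and with the length trend removed 26 of the 49 were below 0. Coa4, an assembly factor of complex IV, had 21.1, 20.4 and 19.4 CPM in control and 14.5, 14.1 and 16 CPM in *thia* (-0.45 ± 0.09, edgeR adjusted p = 0.105).

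Of 19 genes that copy and transcribe mitochondrial DNA, 15 were below 0, 8 at an unadjusted p under 0.05 and 5 called lower by DESeq2. With the length trend removed, 15 of the 19 were below 0 (median -0.14), 7 of them at that p, against 8.42% of all genes. Tefm, the mitochondrial transcription elongation factor, had 28.1, 24.1 and 23.6 CPM in control and 16.4, 17.9 and 15.8 CPM in *thia*, without overlap (-0.60 ± 0.10, edgeR adjusted p = 0.105). Of 18 genes of the tricarboxylic acid cycle 16 were below 0 (median -0.08), 2 of them at an unadjusted p under 0.05, a share close to the 10.0% of all genes. With the length trend removed, 14 of the 18 were below 0 (median -0.04). The smallest p was that of Suclg1, a subunit of succinyl-CoA ligase (-0.39 ± 0.07, edgeR adjusted p = 0.105). Of 11 genes of ubiquinone synthesis 8 were below 0, or 7 with the length trend removed. As fitted, the 1 at an unadjusted p under 0.05, a share close to the same 10.0%, was Coq3 (-0.29 ± 0.10, edgeR adjusted p = 0.175).

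Of 15 transcriptional regulators of mitochondrial genes 11 were above 0 (median 0.07), and 0 of them had an unadjusted p under 0.05. With the length trend removed, 10 of the 15 were below 0, so that the direction turned. Pprc1, a coactivator of the PGC-1 family, had the smallest p, with 53.0, 58.1 and 53.5 CPM in control and 69.7, 58.9 and 59.4 CPM in *thia* (0.19 ± 0.09, edgeR adjusted p = 0.269). Glycolysis had 11 of 18 genes below 0 and a median of -0.04, or 12 of 18 above 0 with the length trend removed, and its gene with the smallest p was higher, Hk2, which phosphorylates glucose, with 23.9, 24.7 and 26.5 CPM in control and 36.1, 29.6 and 38.3 CPM in *thia* (0.47 ± 0.11, edgeR adjusted p = 0.109).

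Ribosomal protein genes were counted as a further comparison, and edgeR called 0 of them. Of 77 mitochondrial ribosomal proteins 75 were below 0 (median -0.24), and of 87 cytoplasmic ones 83 (median -0.24). At an unadjusted p under 0.05 these were 43 and 48 genes, and DESeq2 called 27 and 32 of them lower. With the length trend removed, 62 of 77 (median -0.13) and 76 of 87 (median -0.08) were below 0. As fitted, 31 of the 80 nuclear subunits were lower at an unadjusted p under 0.05.

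Markers of other cells moved with the F3 groups too. The summed level of 9 Leydig cell markers was 2748 to 4436 CPM in control and 4925 to 8825 CPM in *thia*, and that of 8 endothelial markers 178 to 202 and 261 to 316 CPM, neither with an overlap. Of these lists, 8 of 9 and 8 of 8 genes were above 0, and 4 and 7 of them were higher at an unadjusted p under 0.05, against 11.0% of all genes. The 1 Leydig cell marker below 0 had a log2 fold change of -1.37, without overlap of the groups. It too had an unadjusted p under 0.05, against 10.0% of all genes lower, and DESeq2 called it lower. Cdh5, the cadherin of endothelial cells, had 26.2, 33.6 and 34.9 CPM in control and 67.4, 58.5 and 82.5 CPM in *thia* (1.14 ± 0.16, edgeR adjusted p = 0.101). Lhcgr, the receptor of luteinising hormone on Leydig cells, had 1.35 ± 0.28 (edgeR adjusted p = 0.105), Myh11, the smooth muscle myosin of peritubular cells and vessels, 0.88 ± 0.14 and Hbb-y, an embryonic globin, -2.54 ± 0.39 (edgeR adjusted p = 0.101 for both). Myh11 had the highest value of the 8 interstitial and peritubular markers. In that list 6 were above 0 and 2 below (median 0.20), and 4 were higher at an unadjusted p under 0.05. Of the 9 blood markers 6 were below 0 and 3 above, with a median of -0.17, and Hbb-y had the lowest value. In this list 2 were lower at an unadjusted p under 0.05, against 10.0% of all genes, and DESeq2 called 2 lower, against 5.7%. Of 12 skeletal muscle markers 9 were below 0 in F3, and in F1 library 2 of *thia* held a sum of 623 CPM of them against 54.4 to 112 CPM in the other F1 libraries. Of 9 mesonephros and duct markers 8 were tested in F3 and 5 of them were below 0, and of 8 adrenal markers 4 were below 0. The 12 germ cell markers were all below 0 (median -0.42), with sums of 788 to 1217 CPM in control and 568 to 1074 CPM in *thia* that overlapped. Of them 4 were lower at an unadjusted p under 0.05, against 10.0% of all genes. With the length trend removed, 11 of the 12 were below 0 (median -0.29), 0 of them at that p. Pou5f1, a factor of early germ cells, had -0.98 ± 0.35 (edgeR adjusted p = 0.180). Sertoli cell markers had 1159 to 1430 CPM in control and 1071 to 1730 CPM in *thia*, with 6 of 12 below 0 and 6 above. Of the 12, 3 were higher at an unadjusted p under 0.05, against 11.0% of all genes, and also 3 with the length trend removed. Gata4, a factor of the somatic cells of the gonad, had 0.41 ± 0.14 (edgeR adjusted p = 0.166). In pooled tissue, fewer cells of a type and less RNA per cell cannot be told apart, and the part of the cell makeup in the lower levels of the members was not tested.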

How the data were processed

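The authors made strand-specific libraries (NEBNext Ultra II Directional) and paired-end reads, converted them with bcl2fastq 2.20.0.422, mapped them to mm10 with HISAT2 2.1.0 and counted them with featureCounts on refGene. The deposited values are these raw counts, 0 rows of which name no gene. Handling of multiply mapped or overlapping reads is not given in the sources used here.

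Counts were analysed with R 4.3.3, edgeR 4.0.16 and DESeq2 1.42.0, and tables and figures with Python 3.11.15. Genes were kept by filterByExpr (minimum count 10), scaled by TMM and tested with edgeR's quasi-likelihood test within each generation, with Benjamini-Hochberg adjustment over all genes. The FDR threshold was 0.15 for F1, as the authors set it, and 0.1 for F3 and for the interaction. Of the 98 members, 95, 96 and 97 were tested. Atp5c1-ps was at 0 in every library, Cox8b was tested only in the fit of 12 libraries, and Uqcrh-ps1 not in F1. Levels of single genes are CPM scaled by TMM within a generation, and sums over lists and levels per kilobase are CPM scaled over the 12 libraries. A fold change is on the scale of edgeR, and its error was derived from the test. Exon lengths came from GENCODE M21 (all 98 members matched) and promoter windows from RefSeq. The pipeline was tested on simulated data.

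Named are, in each complex, the 3 members with the smallest p in F3 and the 1 in F1, every mitochondrially encoded gene, the duplicated subunits and the most abundant member. The gene with the smallest p in F3 is also named for each list, except the skeletal muscle, mesonephros and duct, adrenal and ribosomal protein lists. Further genes were chosen after their values were seen, such as Ndufv1, Ndufs1, Ndufs3, Ndufa10, Sdha, Cyc1, Uqcrfs1, Cox5b and Atp5a1. Members and lists were chosen with earlier results of these data known. The alternatives were DESeq2, its size factors, upper quartile scaling, 2 filters, 1 fit of the 12 libraries, a threshold of 0.05, the replicate number as a block, a loess correction (span 0.3) for exon length or GC content, block and length together, and leaving out each library in turn. Same-numbered libraries did not deviate together (correlations of -0.03, -0.03 and 0.02 in F1 and 0.23, -0.42 and -0.27 in F3), so the numbers were not taken to pair them.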

Additional observations from a re-analysis of the deposited data

Results flagged for a closer look

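In 3 genes every *thia* library lay above every control in F1 and below every control in F3, as did 86 of the 18229 genes tested in both generations (0.472%). For Cox7a2l the difference between the effects (F3 minus F1) was -0.45 on the log2 scale (edgeR adjusted p = 0.252), for Uqcrc1, a core protein of complex III, -0.26 (edgeR adjusted p = 0.347) and for Atp5sl -0.34 (edgeR adjusted p = 0.268). The test of the difference was not passed by any of the 3. Cox7a2l had 241, 242 and 214 CPM in F1 control and 264, 243 and 263 CPM in F1 *thia*, so that the groups were parted by less than 1 CPM.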

How the results depend on the processing

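Of 649 summary values under the alternatives, 571 stayed within their limits, and of 2653 values of single genes 2478 kept their direction. The limit of a median or a summed level was the SD between replicate libraries, and that of a count was a fixed factor. In F1 this SD was larger than the medians of the complexes. A median could thus change direction there and still count as within its limit. In F3, the members called lower, 0 in the analysis reported, numbered 20 with DESeq2 (which called 2 higher), 7 with upper quartile scaling, 4 without a filter, 5 with at least 10 counts in every library and 12 in 1 fit of the 12 libraries. They numbered 0 to 13 with 1 library left out, 13 without *thia* library 2. Of all genes, 2.8% were called in either direction with upper quartile scaling, 1.85% without a filter and 1.94% with at least 10 counts in every library. Genes called lower were 5.7% of all with DESeq2, 3.99% in the fit of the 12 libraries and 2.59% without *thia* library 2. The 32 members lower at an unadjusted p under 0.05 became 21 to 42 with 1 library left out, 21 without control library 1 and also without control library 3. They became 13 with the length trend removed, against 8.42% of all genes, and 7 with the replicate block and length removal. The 2 higher ones became 1 with upper quartile scaling or GC removal, 4 with length removal or with block and length removal, and 0 to 3 with 1 library left out. The median of complex IV was -0.22 to -0.069 with 1 library left out. With length removal the F3 medians were -0.035 for all nuclear subunits and -0.041, -0.063, -0.020, -0.016 and -0.098 for complexes I to V, and with the block added -0.036, -0.040, -0.066, -0.019, -0.019 and -0.100.

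In F1, the 1 member lower at an unadjusted p under 0.05 became 2 with DESeq2, 3 without a filter, 3 with length removal alone or with the block, and 0 with GC removal. With length removal alone, 4.54% of all genes were lower at that p. The 1 higher became 2 with DESeq2 or at least 10 counts in every library, 4 without a filter and 0 with GC removal or with block and length removal. With 1 library left out they were 0 to 3 lower and 0 to 4 higher. For the difference between generations, DESeq2 called 6 members lower, against 1.89% of all genes. The 24 at an unadjusted p under 0.05 became 37 with upper quartile scaling, 8 with length removal, 12 with the replicate block and 4 with both, and 9 to 33 with 1 library left out. They were 15 without F1 control 3, 10 without F1 *thia* 3, 15 without F3 control 3 and 9 without F3 *thia* 1. The 1 higher became 3 with block and length removal and 0 to 2 with 1 library left out. The share of all genes at that p was counted only as fitted and, for lower genes within a generation, with length removal. In the other settings, in F1, F3 and the difference, a change among the members is thus not set against a change over all genes. With length removal the medians of the difference were -0.052 for all nuclear subunits and -0.052, -0.040, -0.0038, 0.021 and -0.159 for complexes I to V, with the block added -0.049, -0.049, -0.042, -0.011, 0.017 and -0.156, and that of complex II was -0.30 with upper quartile scaling. The replicate block alone left the F3 median of the nuclear subunits at -0.18 and called 0 members. Length removal takes away any trend of counts with exon length, whatever its source. The cause of these changes was not tested, for length removal or for the other settings. Members at a few counts per library, such as Cox8b and Cox6a2, are limited by depth.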
